A study of Mus musculus with 6 samples.

Results

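The 10 genes described here encode the immediate early transcription factors of the AP-1 and EGR families. They are Fos, Fosb, Fosl1 and Fosl2, then Jun, Junb and Jund, then Egr1, Egr2 and Egr3. They were chosen by name from 21924 protein-coding genes, and no value of theirs entered the rule. For each gene, H3K4me3 peaks within 1 kb of any GENCODE M21 transcript start were taken from 6 peak lists, and the presence, strength and width of the strongest peak were recorded. All 10 genes had such a peak in both vehicle controls, and 9 of 10 had one with each of the 4 compounds, the exception each time being Fosl2, beside 55.3% to 59.9% of all protein-coding genes per list. The Fosl2 difference turned on the edge of the 1 kb window, since with 5 kb it was marked in all 6 lists and with principal starts alone in none.

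The lists came from STHdh cells, immortalised mouse striatal progenitor cells used as a model of Huntington's disease, with strain C57BL/6 on the labels. Q7SST is the wild-type STHdhQ7 line and Q111SST is the STHdhQ111 line, which carries mutant huntingtin as a homozygous knock-in, both held for 24 h in medium without serum and with vehicle. The other 4 lists were from STHdhQ111 cells held without serum for 24 h with cyproheptadine, loxapine, diacylglycerol kinase inhibitor II (DKI) or meclizine, each at 10 uM. Serum withdrawal was thus shared by all 6 conditions, each genotype was 1 cell line, so that line and genotype cannot be told apart, and no list from cells in serum was analysed here.

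Immediate early genes are transcribed within minutes of a signal such as serum, growth factors or synaptic activity, without new protein synthesis. Serum acts on many of them through serum response factor, which binds CArG boxes, and through ERK-activated partners such as Elk1, while calcium and cyclic AMP act through CREB at cyclic AMP response elements. Fos proteins cannot pair with each other and bind DNA as AP-1 dimers with Jun proteins, and EGR proteins are zinc finger factors that bind GC-rich sites. In striatal neurons these genes are known for their response to dopamine and glutamate. H3K4me3, trimethylation of lysine 4 on histone H3, lies on nucleosomes around the starts of active and of poised genes, so a peak is not a measure of transcript level.

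Reference promoter sequence (RefSeq, GRCm38.p6) was at hand for 7 of the 10 genes. Shown are the 250 bases before the start of Fos and Egr2, where a TATA box or a CArG box was found, and of Jun and Junb, where the peaks of the 6 lists were cut differently. All run 5′ to 3′ on the gene's own strand. Capitals mark matches, on either strand, to the CArG box, the TATA box TATAAA, the CCAAT box, the GC box GGGCGG and the core TGACG of the cyclic AMP response element.
Fos, chr12:85473640-85473889, plus strand: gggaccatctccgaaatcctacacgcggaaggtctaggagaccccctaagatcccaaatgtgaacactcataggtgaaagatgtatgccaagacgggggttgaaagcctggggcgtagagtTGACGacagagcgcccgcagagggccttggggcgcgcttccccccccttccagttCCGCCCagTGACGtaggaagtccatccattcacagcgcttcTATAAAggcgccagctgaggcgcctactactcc
Jun, chr4:95052223-95052472, minus strand: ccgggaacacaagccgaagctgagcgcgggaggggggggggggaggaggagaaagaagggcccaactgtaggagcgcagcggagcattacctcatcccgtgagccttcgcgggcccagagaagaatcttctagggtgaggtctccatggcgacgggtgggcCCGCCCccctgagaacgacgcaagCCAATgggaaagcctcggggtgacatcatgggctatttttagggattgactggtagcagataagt
Junb, chr8:84978749-84978998, minus strand: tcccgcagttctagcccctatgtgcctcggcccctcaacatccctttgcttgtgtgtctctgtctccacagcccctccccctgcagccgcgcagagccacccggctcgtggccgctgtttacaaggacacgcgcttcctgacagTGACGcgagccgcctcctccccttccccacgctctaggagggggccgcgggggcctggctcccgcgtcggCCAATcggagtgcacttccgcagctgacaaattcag
Egr2, chr10:67537619-67537868, plus strand: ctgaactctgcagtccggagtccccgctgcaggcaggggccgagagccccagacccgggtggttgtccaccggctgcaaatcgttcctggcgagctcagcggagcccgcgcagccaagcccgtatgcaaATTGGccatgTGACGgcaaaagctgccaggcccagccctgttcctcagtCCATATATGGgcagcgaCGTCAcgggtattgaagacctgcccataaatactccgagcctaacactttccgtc

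Positions below count back from the start, with -1 the last base printed. Fos had TATAAA at -33 to -28, and 13.6% of all 32851 promoter windows of 300 bases (250 before the start and 50 after) held that word. Junb held it too, at 1 to 6 after the start. Among the windows of the 7 genes only that of Egr2 held a CArG box, at -72 to -63, and 1.63% of all windows held one. Nothing beyond 250 bases upstream was searched, and Fosl1, Egr1 and Egr3 had no window. The other genes are therefore not shown to lack a CArG box. TGACG stood at -66 to -62 and -129 to -125 in Fos, at -106 to -102 in Junb and on either strand at -111 to -107 and -55 to -51 in Egr2, and also occurred in Fosb, against 20.8% of all windows.

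CCAAT was found in Jun, Junb and Egr2 (37.4% of all windows), and the GC box in Fos, Fosb, Fosl2 and Jun (35.7%). Neither the full element TGACGTCA (1.79% of windows), the AP-1 site TGAGTCA (5.2%) nor the EGR site GCGTGGGCG (0.612%) occurred in the windows of the 7 genes, which says only that these letters were not there. The core TGACG was searched after the sequences had been seen, and every TGACGTCA contains it. The windows of the 7 genes had a median of 20 CpG against 7 over all windows and a median GC content of 60.0% against 52.7%, the exception being Jund, with 3 CpG and 46.7% GC. The Fos, Fosb, Jun and Egr2 windows lay wholly under a peak in all 6 lists. The Junb window was covered over all 300 bases in both vehicle lists, but only over 61 bases under cyproheptadine, 55 under loxapine, 85 under DKI and 88 under meclizine. The Fosl2 window had no covered base in any list, nor did the Jund window, whose RefSeq start lies at -1210 bp from the GENCODE start.

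List length was 38392 peaks in Q7SST and 40406 in Q111SST, and 33721 under cyproheptadine, 45564 under loxapine, 30758 under DKI and 38577 under meclizine. Each peak carried a whole-number score of unstated scale, so strength is given as the percentile of a peak's score among all peaks of its own list. Each condition had a single list, so replicate spread could not be measured and no test was made. A difference of 5 percentile points or more, or a width ratio of 5 to 4 or more, is counted only to describe these lists. Read depth is unknown, and a list with more weak peaks gives a higher percentile to the same promoter.

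As a check of the label, defining markers were looked up, beside the 55.3% to 59.9% of all protein-coding genes marked per list. Of 6 neural progenitor markers 4 to 6 were marked per list. Sox2 was unmarked in Q7SST, Nes with cyproheptadine, and Pax6 with cyproheptadine and DKI. Of 13 striatal markers, 10 were marked in Q7SST and 5 or 6 in the other lists, and Isl1, Drd1 and Drd2 were marked in none. All 4 mesenchymal markers were marked in all 6 lists, both endothelial markers in none, and oligodendrocyte markers only once (Mbp with meclizine). Of the 4 neuron markers Syt1 and Tubb3 were marked in all lists and Rbfox3 and Snap25 in none, and 1 or 2 of the 3 astrocyte markers were marked per list. Of the 5 microglia markers, Tmem119 was marked in all lists, Cx3cr1 and Ptprc in none, Aif1 only in the vehicle lists and P2ry12 only with loxapine. Against Q111SST the 4 mesenchymal markers had a median difference of -4.21 points in Q7SST, -15.6 under cyproheptadine, -16.9 under loxapine, -21.8 under DKI and -3.53 under meclizine. Under each of the first 3 compounds 3 of 4 were lower by 5 points or more, beside 44.1%, 22.4% and 55.9% of all genes. The medians over all genes in these comparisons were -1.04, -3.74, -0.352, -6.57 and -1.54. Other marker sets were lower too with cyproheptadine and DKI. Neural progenitor markers had medians of -8.58 and -9.86, striatal markers -8.67 and -6.38 and neuron markers -17.5 and -13.0. With loxapine these sets had 1.65, -0.367 and 10.8, and with meclizine -7.95, 2.19 and -0.0684. The part of these markers in the values below was not tested.

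As a group the 10 promoters carried peaks that were wide but not strong for a promoter. A peak within 1 kb of a start was found at 59.9% of all protein-coding genes in Q7SST and 58.3% in Q111SST, and at 55.3% under cyproheptadine, 58.1% under loxapine, 55.7% under DKI and 58.6% under meclizine. The median percentile of the marked members was 70.0 in Q7SST and 64.4 in Q111SST, and 65.8 under cyproheptadine, 69.0 under loxapine, 72.6 under DKI and 70.7 under meclizine. Over all marked genes it was 80.4, 82.6, 79.5, 83.0, 76.3 and 80.3 in the same order. Most members were thus below the median promoter, by counts of 9 of 10, 9 of 10, 8 of 9, 7 of 9, 5 of 9 and 7 of 9.

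**Figure D1:**
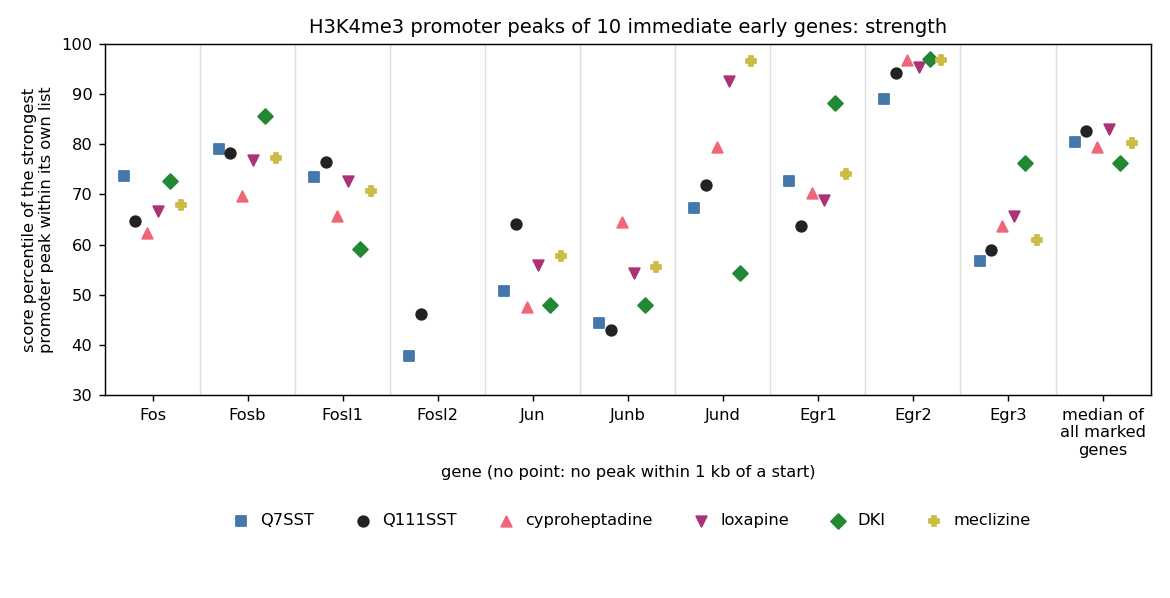
Score percentile of the strongest H3K4me3 peak within 1 kb of a start (vertical axis, from 30 to 100) for each gene and, at the right, the median over all marked protein-coding genes, with 1 point per list and no error bars because each condition has 1 list. Egr2 lies at 89.1 or above in every list, Jund is spread from 54.3 to 96.5, and Fosl2 has points only in the vehicle controls.

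Width went the other way. The median width of the members' strongest peak was 2742.5 bp in Q7SST and 3125 bp in Q111SST, and 2086 bp under cyproheptadine, 2497 bp under loxapine, 2230 bp under DKI and 2650 bp under meclizine. Over all marked genes the medians were 1709, 1795, 1546, 1720, 1461 and 1672 bp. All 10 members were wider than the median promoter in both vehicle lists, and 6, 8, 7 and 8 of 9 were with cyproheptadine, loxapine, DKI and meclizine. Among all marked promoters, score and width were only loosely related, with Spearman's rho across genes between 0.0985 and 0.150 in the 6 lists, as a description over genes that share a list.

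**Figure D2:**
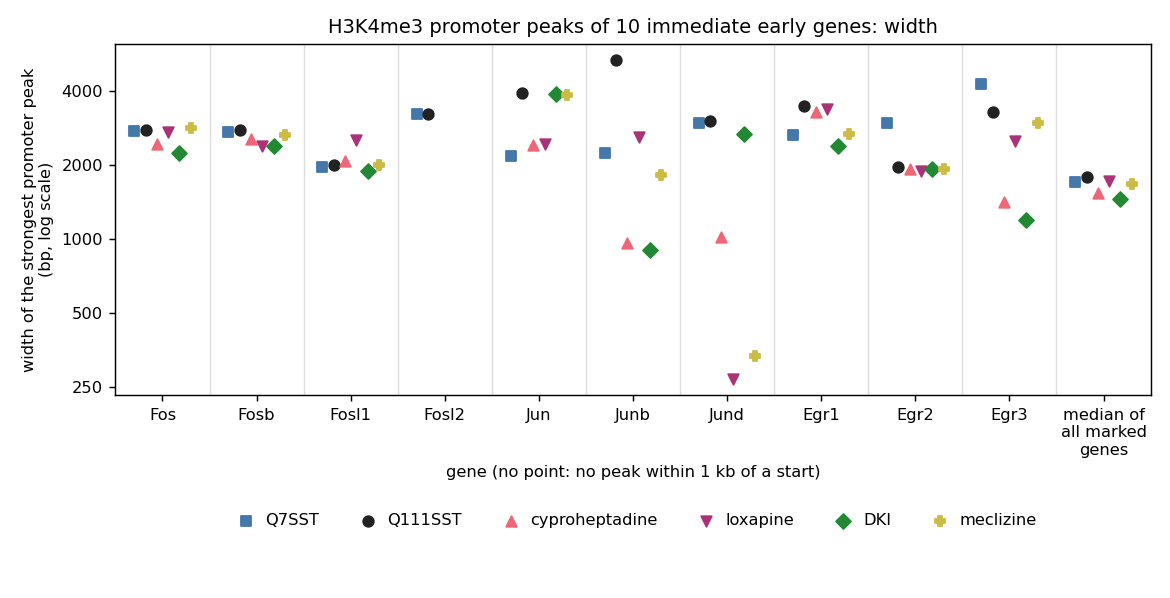
Width in bp, on a log scale, of the strongest H3K4me3 peak within 1 kb of a start, for each gene and list, with the median over all marked protein-coding genes at the right. The Fos, Fosb and Fosl1 points stay close together, while Junb runs from 903 to 5353 bp and Jund from 269 to 3018 bp.

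A peak lay over the principal start, the most upstream start of an APPRIS principal transcript, at 9 of 10 members in Q7SST and Q111SST, 8 under cyproheptadine, 7 under loxapine, 8 under DKI and 7 under meclizine. Over all genes the shares were 46.8%, 45.6%, 38.8%, 42.2%, 41.3% and 46.6%. Fosl2 was uncovered in all 6 lists. With compounds the other uncovered starts were those of Junb, in all 4 lists, and of Jund, with loxapine and meclizine.

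Fos, the dimer partner most often used as a marker of neuronal activity, had a single peak that spanned its start in all 6 lists. In Q111SST it ran over chr12:85472000-85474783, of which 1890 bp lay upstream of the gene, 141 bp in coding sequence, 243 bp in other exon sequence and 510 bp in introns. Its percentile was 73.8 in Q7SST and 64.6 in Q111SST, and 62.4 under cyproheptadine, 66.8 under loxapine, 72.6 under DKI and 67.9 under meclizine. Q7SST and DKI were the highest and cyproheptadine the lowest, within a range of 11.4 points. The peak was 2750, 2784, 2445, 2713, 2230 and 2820 bp wide in the same order, so it was narrowest with DKI.

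Fosb, whose truncated product is known to build up in striatal neurons on repeated stimulation, also had 1 unbroken peak per list, in Q111SST at chr7:19307863-19310642. It extended mostly into the gene, from -591 to 2188 bp around the start in Q111SST, and its percentile was 79.0 in Q7SST and 78.3 in Q111SST, and 69.7 under cyproheptadine, 76.8 under loxapine, 85.5 under DKI and 77.2 under meclizine. DKI was the highest and cyproheptadine the lowest. Widths ran only from 2382 bp with DKI to 2780 bp in Q111SST, the smallest spread among the 9 members marked in all 6 lists, at a ratio of 1.17.

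Fosl1, which encodes Fra-1, had a peak that began at -154 to -19 bp from the start in the 6 lists and ran into the first intron, in Q111SST at chr19:5447416-5449419. Its percentile was 73.4 in Q7SST and 76.6 in Q111SST, and 65.8 under cyproheptadine, 72.6 under loxapine, 59.1 under DKI and 70.7 under meclizine. It was lowest with DKI, the list in which Fosb was highest. The width was 1883 to 2086 bp in 5 lists and 2532 bp with loxapine.

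Fosl2, which encodes Fra-2, differed from the rest in having no peak over its principal start in any list. In Q7SST 1 peak lay 1187 to 4416 bp downstream of that start, and in Q111SST a peak at 1255 to 4486 bp downstream (chr5:32137056-32140287, percentile 46.2) was joined by a weak one upstream, at -2336 to -1506 bp. All 4 compound lists also held an upstream and a downstream peak, and the downstream one began farther from the start than in the vehicle lists. It began at 2012 bp under cyproheptadine, 1513 bp under loxapine, 1678 bp under DKI and 1454 bp under meclizine, and its percentile was 49.6, 53.6, 29.5 and 43.8. The presence call therefore turned on the edge of the 1 kb window, since the nearest peak to any Fosl2 start was at 815 bp in Q7SST and 883 bp in Q111SST but at 1605, 1141, 1034 and 1082 bp with the compounds. With a 5 kb window all 10 members were marked in all 6 lists, beside 64.7% of all genes in Q7SST and 63.7% in Q111SST, and 60.3% under cyproheptadine, 64.1% under loxapine, 60.2% under DKI and 63.6% under meclizine. Within 5 kb of its start Fosl2 had 3230 covered bp in Q7SST and 4063 in Q111SST, and 3009 under cyproheptadine, 3797 under loxapine, 3608 under DKI and 3922 under meclizine.

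**Figure D3:**
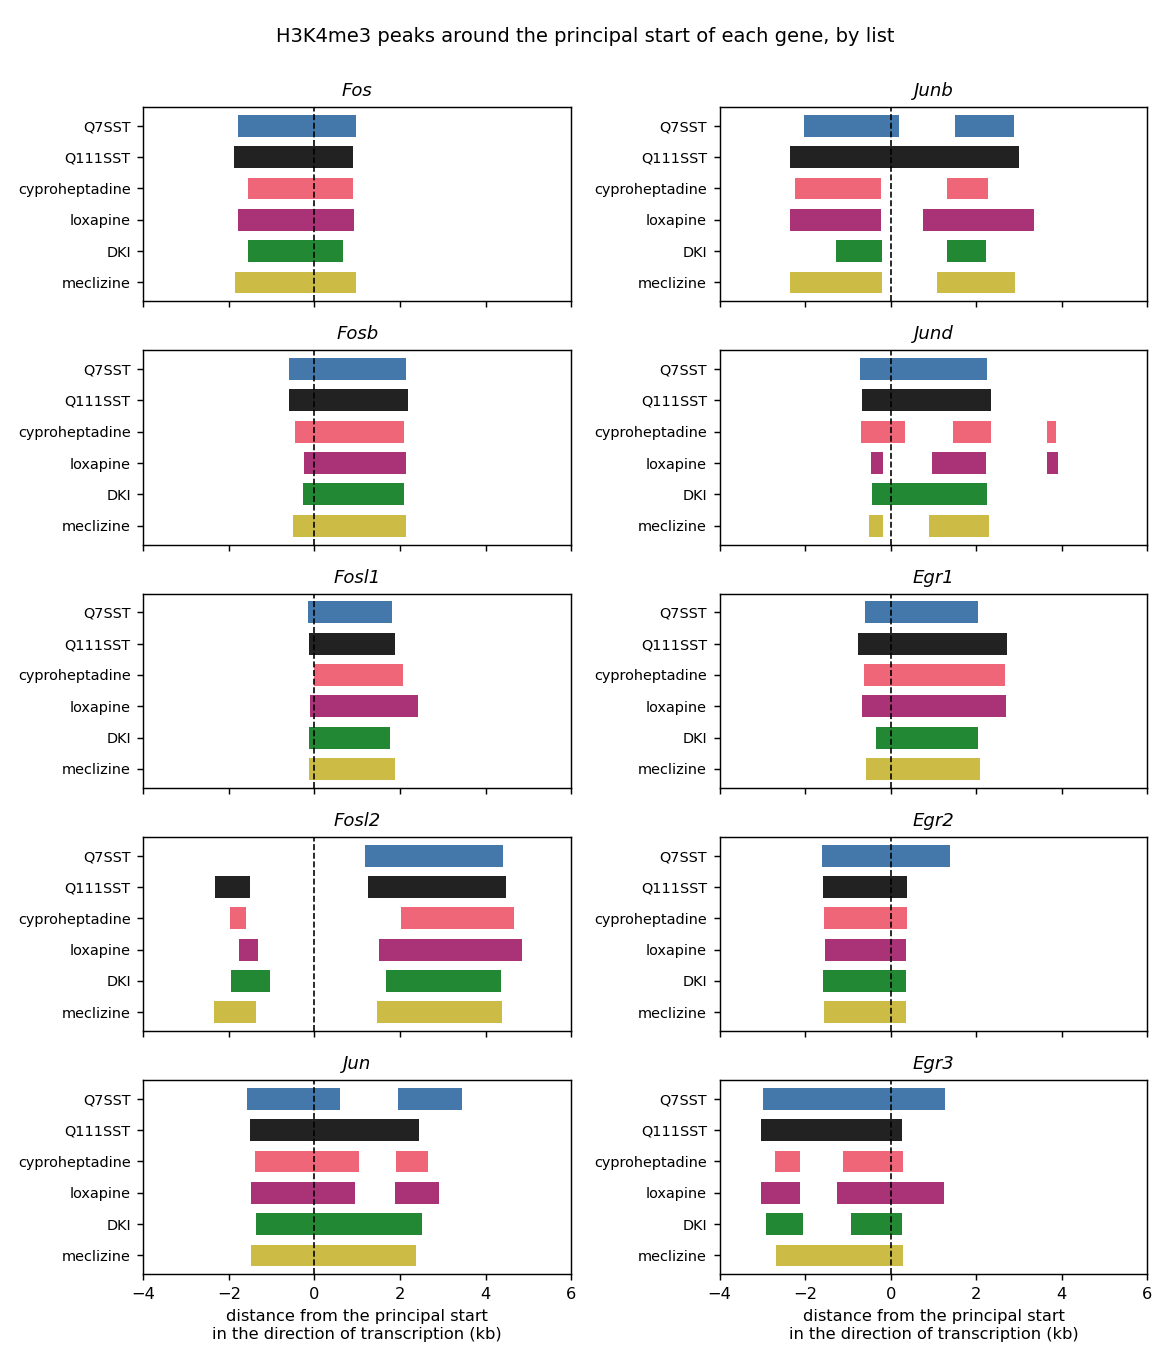
All H3K4me3 peaks near the principal start of each gene, 1 row per list, on a horizontal axis of distance from that start in kb in the direction of transcription (dashed line at 0). Fos, Fosb, Fosl1, Egr1 and Egr2 have 1 unbroken peak in every list, whereas Junb is unbroken only in Q111SST and the Fosl2 start is bare in every row.

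The 3 Jun genes, whose main transcripts have no intron, showed more varied layouts. Jun, the principal partner of Fos, stood at percentile 50.8 in Q7SST and 64.2 in Q111SST, and 47.6 under cyproheptadine, 55.9 under loxapine, 48.0 under DKI and 57.8 under meclizine. Q111SST was the highest of the 6. The Jun peak was unbroken over 3933 bp in Q111SST (chr4:95049787-95053719, 1002 bp of it coding), 3889 bp with DKI and 3848 bp with meclizine. In Q7SST, cyproheptadine and loxapine it was 2179, 2421 and 2430 bp wide and was followed, after gaps of 1370, 862 and 944 bp inside the gene, by a separate downstream peak. The summed cover within 5 kb was nearer alike, from 3182 bp (cyproheptadine) to 3933 bp (Q111SST). The antisense gene Junos starts under the Jun peak in all 6 lists, and the mark at these starts cannot be told apart.

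Junb, whose product often restrains AP-1 activity, had the widest peak of any member in Q111SST, 5353 bp at chr8:84975721-84981073. It ran from -2355 to 2997 bp around the start and its width percentile among marked promoters was 99.98. In each of the other 5 lists Junb had 2 peaks with a gap between them. The gap was 1299 bp in Q7SST, where it began 205 bp after the start. With cyproheptadine, loxapine, DKI and meclizine it was 1542, 974, 1520 and 1268 bp long, began at -219, -225, -195 and -192 bp from the start and so left the start bare. The cover within 5 kb was 3627 bp in Q7SST and 5353 in Q111SST, and 2990 under cyproheptadine, 4737 under loxapine, 1984 under DKI and 3991 under meclizine, so loxapine was close to Q111SST and DKI farthest from it.

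The strongest Junb peak stood at percentile 44.4 in Q7SST and 43.0 in Q111SST, and 64.5 under cyproheptadine, 54.4 under loxapine, 48.0 under DKI and 55.5 under meclizine. With the compounds this was the downstream peak, near another annotated start 2176 bp into the gene, whereas in Q7SST it was the upstream one. The upstream peak, the one next to the principal start, stood at 43.1 under cyproheptadine, 39.5 under loxapine, 40.8 under DKI and 39.1 under meclizine, so none of the 4 was above Q111SST by 5 points. With loxapine the downstream peak began 749 bp after that start, inside the 1 kb window, and so was still the one counted when principal starts alone were used.

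Jund, which unlike its relatives is expressed in resting cells, had the widest spread of any member, 42.2 points. Its percentile was 67.2 in Q7SST and 72.0 in Q111SST, and 79.5 under cyproheptadine, 92.6 under loxapine, 54.3 under DKI and 96.5 under meclizine. The high values belonged to short peaks. Widths were 2974 bp in Q7SST, 3018 bp in Q111SST (chr8:70698272-70701289), then 1024 bp under cyproheptadine, 269 bp under loxapine, 2682 bp under DKI and 333 bp under meclizine.

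With loxapine and meclizine the strongest Jund peak lay wholly upstream, at -454 to -186 bp and -517 to -185 bp. It was followed by a gap of 1143 and 1074 bp over the start and then by a peak over the gene body and beyond at percentile 68.0 and 64.5. The cover within 5 kb was 2974 bp in Q7SST and 3018 in Q111SST, and 2136 under cyproheptadine, 1791 under loxapine, 2682 under DKI and 1753 under meclizine. With cyproheptadine and loxapine this sum includes a peak of 222 and 243 bp near the start of the neighbouring gene Iqcn. Jund was thus broken in the 3 lists where its percentile was highest. The antisense gene Gm11175 starts under the gene body peak in all lists but cyproheptadine.

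The gaps at or near the starts of the Jun genes and Fosl2 were richer in GC than the peaks beside them. GC content, read from the GRCm38 sequence, was 65.9% to 66.6% in the 5 Junb gaps, against 52.9% to 59.1% in the peaks on either side. In the 3 Jun gaps it was 63.5% to 64.7%, against 44.6% to 60.6%. The gaps over the Jund start held 72.8% with loxapine and 73.4% with meclizine, against 57.5% to 61.9% in the flanking peaks, and the gap after the start with cyproheptadine held 68.6%, against 67.4% and 53.5%. The Fosl2 gaps held 58.2% to 61.3%, against 46.5% to 55.4%. The upstream Egr3 gap was richer than both flanking peaks with loxapine (65.0% against 62.8% and 60.4%) but lay between them with cyproheptadine (62.3% against 67.3% and 57.4%) and with DKI (60.3% against 65.2% and 58.2%). The Jund gaps beyond the gene were not richer than both flanking peaks, at 50.5% with cyproheptadine (against 53.5% and 49.1%) and 50.1% with loxapine (against 58.1% and 50.2%). Whether GC content bears on the reads recovered in these gaps was not tested.

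Among the EGR genes, Egr1 is the zinc finger factor most readily induced by serum and growth factors. Its peak was unbroken in all lists, in Q111SST at chr18:34859059-34862547, and its percentile was 72.7 in Q7SST and 63.6 in Q111SST, and 70.3 under cyproheptadine, 69.0 under loxapine, 88.2 under DKI and 74.1 under meclizine. Q111SST was the lowest and DKI the highest. Widths fell into a wider set of 3489, 3302 and 3375 bp in Q111SST, cyproheptadine and loxapine and a narrower set of 2662, 2389 and 2673 bp in Q7SST, DKI and meclizine, the difference lying mostly at the downstream edge.

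Egr2, also known as Krox20 and needed for hindbrain patterning and myelination, was the strongest member in all 6 lists. Its percentile was 89.1 in Q7SST and 94.2 in Q111SST, and 96.8 under cyproheptadine, 95.4 under loxapine, 96.9 under DKI and 96.8 under meclizine. This range of 7.82 points was the narrowest among the members marked in all lists. The peak, at chr10:67536287-67538249 in Q111SST, covered the CArG box and promoter shown above and was 1891 to 1963 bp wide in the 5 mutant lists. In Q7SST it was 2977 bp wide, because its downstream edge lay at 1378 bp rather than at 349 to 380 bp.

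Egr3, a relative of Egr1 needed for muscle spindles, stood at percentile 56.7 in Q7SST and 59.0 in Q111SST, and 63.7 under cyproheptadine, 65.6 under loxapine, 76.3 under DKI and 61.0 under meclizine. DKI was again the highest, as for Egr1. The peak was unbroken over 4271 bp in Q7SST, 3292 bp in Q111SST (chr14:70074287-70077578) and 2967 bp with meclizine. With cyproheptadine, loxapine and DKI it was 1414, 2497 and 1200 bp wide and a separate peak of 594, 908 and 862 bp lay upstream, ending at -2113, -2118 and -2056 bp. In Q7SST and with loxapine it also reached 1275 and 1235 bp into the gene, against 264 to 287 bp in the other lists.

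The members also differed among themselves in how much they moved across lists. Over the 9 marked in all 6 lists the median range was 17.5 percentile points, against 14.4 over the 11713 protein-coding genes marked in all lists, and 7 of 9 exceeded that background. The ratio of widest to narrowest peak had a median of 1.57 against 1.37, led by Jund at 11.2, Junb at 5.93 and Egr3 at 3.56. These 3 ratios include peaks that were broken into pieces, and for the bases covered within 5 kb the ratio of most to least was 1.72 for Jund, 2.70 for Junb and 2.13 for Egr3. The genes closest to Jund in percentile over the 6 lists were Creb3l1, Malt1 and Ankhd1, with mean absolute differences of 5.90, 6.16 and 6.74 points. Creb3l1 stood at 85.5 with loxapine and 86.0 with meclizine but at 66.1 with DKI.

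All comparisons below are with the 1 Q111SST list, which they share. Between the wild-type and the mutant line, 2 of 10 members were higher in Q7SST by 5 points or more, Fos by 9.14 and Egr1 by 9.02. Over all genes marked in both lists 17.8% were higher. Lower in Q7SST were Jun, Fosl2 and Egr2, with differences of -13.3, -8.44 and -5.03 points, or 3 of 10 against 27.4% of all genes. The median difference of the members (Q7SST minus Q111SST) was -2.69 points, against -1.04 over all genes, and it turned to 2.32 when only peaks with a score of at least 47 were kept, where that of all genes was 0.316. None was lost, against 3.56% of all genes marked in Q111SST. Egr2 and Egr3 were wider in Q7SST, at 2977 against 1963 bp and 4271 against 3292 bp (9.83% of all genes). Egr1, Jun and Junb were narrower, at 0.763, 0.554 and 0.418 (13.3%).

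**Figure D4:**
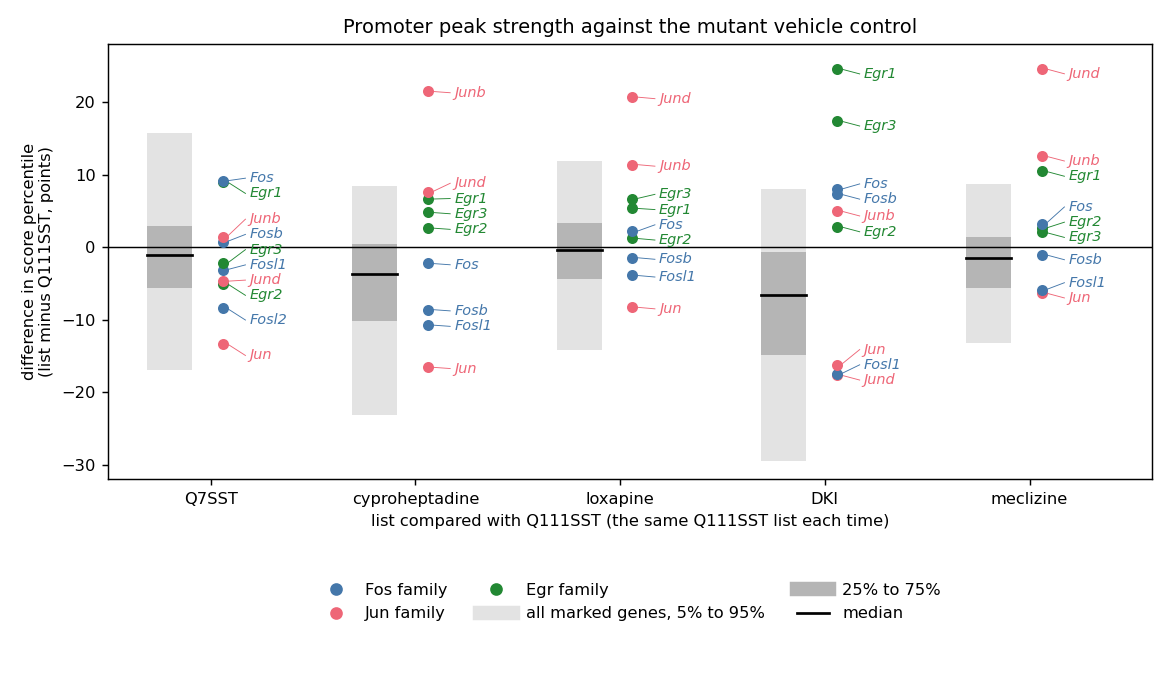
Difference in score percentile (points, list minus Q111SST) for each member marked in both lists, as points coloured by family, beside all protein-coding genes marked in both lists (light bar, 5% to 95% of genes; dark bar, 25% to 75%; black line, median). With DKI the 9 members spread from Egr1 and Egr3 at 24.5 and 17.4 points, through Fos, Fosb, Junb and Egr2 between 7.98 and 2.78, to Jun, Fosl1 and Jund between -16.2 and -17.7, while the median of all genes is -6.57.

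DKI is an inhibitor of the kinase that converts diacylglycerol to phosphatidic acid. Its member differences had the widest spread of the 5 comparisons under the main setting, but not with lists of equal size or among promoter peaks. Higher by 5 points or more were 4 of 9 members, Egr1 by 24.5 points, Egr3 by 17.4, Fos by 7.98 and Fosb by 7.28, against 8.49% of all genes. Lower were Jund, Fosl1 and Jun, with differences of -17.7, -17.5 and -16.2 points, or 3 of 9 against 55.9% of all genes. The Jun call ended with lists of equal size (48.0 against 52.9) and among promoter peaks (14.7 against 18.5). With lists of equal size 5 members were higher and 2 lower, beside 21.8% and 37.5% of all genes. The members' median difference under the main setting was 4.96 points while that of all genes was -6.57. With lists of equal size it was 14.1 (all genes -1.84), with scores of at least 47 it was 16.8 (-8.80), among promoter peaks 10.4 (-2.52) and with principal starts alone 2.78 (-6.73). The 16.8 rests on 7 members, because the score cut removed Junb and also Jun, a lower member with a DKI score of 44. Narrower peaks were found at 3 of 9 members, Egr1 at a ratio of 0.685, Egr3 at 0.365 and Junb at 0.169, against 40.7% of all genes, and none was wider (2.32%). The Egr1 and Egr3 peaks that stood higher were thus also narrower. The loss of Fosl2 stood beside a background of 4.94%. DKI was the shortest list, with 30758 peaks.

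With cyproheptadine, an antihistamine that also blocks serotonin receptors, 3 of 9 members were higher, Junb by 21.5 points, Jund by 7.59 and Egr1 by 6.62, against 9.68% of all genes. Lower were Jun, Fosl1 and Fosb, with differences of -16.6, -10.7 and -8.61 points, or 3 of 9 against 44.1%. The median difference was 2.63 points, against -3.74 over all genes, but 0.0683 (all genes -3.88) with principal starts alone and 9.24 (-2.59) among promoter peaks. The Junb and Jund values came from shortened peaks, and with principal starts alone Junb was no longer higher, at 43.1 against 43.0. Narrower were Jun (0.616), Egr3 (0.430), Jund (0.339) and Junb (964 against 5353 bp), or 4 of 9 against 29.3% of all genes, and none was wider (1.9%). With peaks within 1 kb merged, Jun and Egr3 were 4044 and 2994 bp wide and no longer counted as narrower, while Junb and Jund kept their widths. Loss had a background of 5.7%.

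With loxapine, an antipsychotic, 4 of 9 members were higher, Jund by 20.7 points, Junb by 11.4, Egr3 by 6.67 and Egr1 by 5.34, against 18.6% of all genes. The Jund value came from the peak of 269 bp upstream of the start, and with a peak over a start required Jund had no value and 3 members were higher (14.8% of all genes). Only Jun was lower, with a difference of -8.29 points (22.4% of all genes). The median difference was 2.15 points against -0.352, but 0.790 (all genes -2.57) with lists of equal size and 5.12 (0.378) with scores of at least 47. Loxapine was the longest list, and with lists of equal size 2 members were higher and 3 lower, beside 16.0% and 38.8% of all genes. Fosl1 was wider, at 1.26 (5.58% of all genes), and Egr3, Jun, Junb and Jund were narrower, at 0.759, 0.618, 0.488 and 0.0891, or 4 of 9 against 13.7%. With peaks within 1 kb merged, Egr3, Jun and Junb were 4261, 4404 and 5711 bp wide with loxapine against 3292, 3933 and 5353 bp in Q111SST, so that only Jund, at 269 bp, was still narrower, and Egr3 became wider. Loss had a background of 2.12%.

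With meclizine, another antihistamine, 3 of 9 members were higher, Jund by 24.6 points, Junb by 12.5 and Egr1 by 10.4, against 10.6% of all genes. The Jund call ended when a peak over a start was required, and the Junb call ended with principal starts alone, at 39.1 against 43.0. Jun and Fosl1 were lower, with differences of -6.33 and -5.87 points (27.8% of all genes), but not with scores of at least 47, at 24.3 in both lists for Jun and 47.4 against 50.5 for Fosl1. The median difference was 2.61 points against -1.54, but 11.6 (all genes 0.885) with scores of at least 47. Junb, Jund and Egr1 were narrower, at 0.342, 0.110 and 0.766, or 3 of 9 against 12.8%, none was wider (6.1%), and loss had a background of 1.37%. The differences nearest to the 5 point limit over all comparisons were Egr2 in Q7SST at -5.03, Junb with DKI at 4.96 and Egr3 with cyproheptadine at 4.77.

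Among the compounds, Jund stood at 92.6 and 96.5 with loxapine and meclizine but at 54.3 with DKI, and at 79.5 with cyproheptadine. Egr1 stood at 88.2 with DKI, 74.1 with meclizine, 70.3 with cyproheptadine and 69.0 with loxapine. Jun was below Q111SST and Egr1 above it in each of the other 5 lists, and these differences all rest on the same Q111SST values of 64.2 and 63.6.

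Beyond the promoters, 19 to 28 other peaks per list lay within 20 kb of the 10 principal starts, of which 6 to 9 were within 1 kb of another protein-coding gene's start. Fos had the same pair of flanking peaks in all 6 lists, with no annotated start under them. The upstream one, 1189 to 1562 bp wide and at -18997 to -17463 bp in Q111SST, stood at percentile 93.8 in Q7SST and 84.9 in Q111SST, and 88.2 under cyproheptadine, 90.0 under loxapine, 83.6 under DKI and 95.1 under meclizine. The downstream one, which began 11737 to 11952 bp after the start, stood at 85.0, 87.8, 79.1, 79.7, 74.3 and 80.3. Both were above the Fos promoter peak of their own list in all 6 lists. Fosb likewise had a downstream peak (8236 to 9444 bp in Q111SST) at percentile 87.6 to 96.4, near the start of the noncoding gene Gm26802, and another upstream (-17588 to -16520 bp in Q111SST) at 67.1 to 96.4, highest in Q7SST and lowest with cyproheptadine. Egr1 had at most 1 other peak per list, and with cyproheptadine and DKI none.

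The rest of the pathway was taken from 5 lists of 64 genes that do not include the 10. Of these, 59 were marked in all 6 lists, beside 11713 of all 21924 protein-coding genes. Among the 59 were all 12 upstream factors such as Srf, Elk1 and Creb1, while Npas4 and Batf were marked in no list. Egr4, a neuronal relative of Egr1, was marked only in Q7SST by a weak peak at percentile 28.3, as was the neuronal kinase gene Mapk10 at 56.1. Ier5 was marked in Q7SST and with meclizine, at 29.8 and 5.91. Wide ranges were found for Rgs2 (77.3 in Q111SST and 51.7 with DKI, with 43.1 for cyproheptadine), Sik1 (50.7 and 26.6, with 12.3 for cyproheptadine), Dusp5 (55.5 and 39.7, with 76.4 for loxapine) and Atf3 (68.0 and 37.4).

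Against Q111SST, 33 of the 59 pathway genes marked in both lists were lower with DKI and 6 higher, with a median of -8.02 points, beside 55.9% and 8.49% of all genes. The counts were 29 lower and 4 higher with cyproheptadine (median -4.85), beside 44.1% and 9.68%. With meclizine they were 25 and 3 (-3.59), beside 27.8% and 10.6%, with loxapine 15 and 14 (-0.923), beside 22.4% and 18.6%, and in Q7SST 13 and 12 (-1.90), beside 27.4% and 17.8%. Counts this near to the shares of all genes, as with DKI, are no result about the pathway. The meclizine counts lay farther off, with more genes lower and fewer higher than those shares, and this was not tested.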

How the data were processed

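H3K4me3 ChIP-Seq peak lists were used, 1 for each of 6 conditions, with groups taken from the sample labels. Chromatin was digested with micrococcal nuclease. Each deposited list gave chromosome, start, end and a score. The score is a whole number of at least 10 written by the authors' peak caller, and its scale is not given in the sources used here. The submitters' processing notes name Trimmomatic 0.36, Bowtie2, SAMtools 1.3, MACS2 and mm10, without settings, input control or whether the triplicate treatments were pooled. Without read totals, the depth behind each list is unknown. Peak ends exceeded the GRCm38 length on 0 of 21 chromosomes. Coordinates count from 1.

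GENCODE release M21 gave all transcript starts of 21924 protein-coding genes. For each gene, the strongest peak within 1 kb of a start was taken, ties going to the wider. Its percentile is the mid-rank of its score among all peaks of its list. Python 3.11.15, numpy 2.4.6, pandas 2.3.3 and matplotlib 3.10.9 were used. The steps were checked on the Q111SST list, unchanged and with planted changes, and the merging on a made-up example. With 1 list per condition no test, SD or p-value was possible.

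The members, the pathway and marker lists and the settings were chosen with earlier results of these data known. Named genes were all members, pathway genes marked in 1 to 5 lists plus, those being fewer than 8, the genes with the widest ranges, genes whose start lay under a member peak, and the 3 genes closest to the member of widest range. Of the genes this rule gave, 1 is left out of the text. Alternatives were peaks with a score at or above the pooled median of 47, lists of equal size, merging of peaks within 1 kb, windows of 0 and 5 kb, summed widths, percentiles among promoter peaks, and, added after seeing the data, principal starts alone.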

Additional observations from a re-analysis of the deposited data

How the results depend on the processing

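The number of members marked and the median widths stayed within their limits (1.5 times, or the 95% binomial interval of the median over members) in all 36 and 42 alternatives, as did 32 of 35 median differences and 31 of 42 median percentiles. These limits are wide, so staying within them does not show stability. The interval treats the members of 1 list as independent, and a DKI median difference of 16.8 against 4.96 lay within it. A count of 9 or 10 members could hardly leave a limit of 1.5 times. The median percentiles outside their limits came from the stricter score, lists of equal size and ranking among promoter peaks. Dropping the lowest scores, as the first of these settings do, lowers percentiles by construction. Ranking among promoter peaks uses another set of peaks, so its percentiles are not on the main scale. Ranked among promoter peaks alone, the median percentile was 30.3 in Q7SST and 18.7 in Q111SST, and 26.2 under cyproheptadine, 25.5 under loxapine, 43.8 under DKI and 30.9 under meclizine. Restricted to scores of at least 47, it was 33.0 in Q111SST, 27.4 with cyproheptadine, 37.1 with loxapine and 47.4 with meclizine, and with lists of equal size 54.1 with loxapine. The median difference of Q7SST from Q111SST reversed, to 2.32 with the stricter score and 0.548 among promoter peaks (all genes 0.316 and 0.693), and that of cyproheptadine moved to 9.24 among promoter peaks (-2.59). Otherwise the medians with the compounds stayed above 0 but varied in size, from 0.0683 (principal starts, all genes -3.88) to 5.21 (equal size, -1.03) with cyproheptadine, from 0.790 (equal size, -2.57) to 5.12 (stricter score, 0.378) with loxapine, from 2.78 (principal starts, -6.73) to 16.8 (stricter score, -8.80) with DKI and from 2.01 (principal starts, -1.57) to 11.6 (stricter score, 0.885) with meclizine. The cause was not tested. Counts of members higher and lower also moved, as did the shares of all genes under the same setting. The stricter score drops members by their own scores and left 7 or 8 in each comparison. With it the counts were 4 and 2 of 8 in Q7SST (all genes 33.2% and 29.0%) and 6 and 0 of 8 with meclizine (32.7% and 22.9%). With lists of equal size they were 5 and 2 with cyproheptadine (21.5% and 32.0%), 2 and 3 with loxapine (16.0% and 38.8%) and 5 and 2 with DKI (21.8% and 37.5%). Among promoter peaks they were 5 and 3 with cyproheptadine (25.4% and 41.6%), 6 and 2 with DKI (27.9% and 42.1%) and 5 and 1 with meclizine (26.6% and 27.3%). With principal starts alone they were 2 and 3 with cyproheptadine (9.46% and 44.8%) and 2 and 2 with meclizine (10.4% and 28.2%), the Junb value being the one that changed. With a peak over a start they were 3 and 1 with loxapine (14.8% and 23.9%) and 2 and 2 with meclizine (9.69% and 27.1%), where Jund had no such peak and its higher call ended. Merging peaks within 1 kb ended the narrower calls of Jun and Egr3 with cyproheptadine and of Jun, Junb and Egr3 with loxapine, since those peaks were joined to a neighbour. No paired analysis was possible because the lists carry no replicate numbers and no test was made.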
